A study of Homo sapiens with 8 samples.

Results

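Integrin subunits, the chains of the main receptors for extracellular matrix, were followed as 10 genes in C8161 and A2058, cell lines established from human melanomas: the alpha subunits ITGA2, ITGA3, ITGA4, ITGA5, ITGA6 and ITGAV and the beta subunits ITGB1, ITGB3, ITGB5 and ITGB8. The genes were listed by symbol, and all 10 were found by Entrez identifier among the 18478 genes of the authors' table. The groups were C8161 cells that overexpressed ATF-3 after retroviral transduction (3 libraries), C8161 neomycin controls (3 libraries), A2058 cells that overexpressed ATF-3 in the same way (1 library) and A2058 neomycin controls (1 library). The medium was DMEM with 10% serum for every group, and RNA of the whole culture was sequenced. The labels do not say whether transduced cells were clones or pools, nor whether the C8161 libraries came from separate cultures.

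Integrins are cell surface receptors made of an alpha and a beta chain that join the extracellular matrix to the actin cytoskeleton. The beta1 chain pairs with many alpha chains, among them those that bind collagen (alpha2), laminin (alpha3 and alpha6), fibronectin (alpha5) and VCAM-1 (alpha4). The alphav chain pairs with several beta chains instead, and alphav-beta3 in particular is known in melanoma as a marker of vertical growth. The chains reach the surface as dimers, and a transcript level of either chain is not a level of the receptor.

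The regions before the transcription starts of ITGA5, ITGA6 and ITGB1 are shown first, because ATF3 is a basic leucine zipper factor that binds CRE and AP-1 sites and because these windows hold, or lack, the letters of such sites. They are RefSeq windows of build GRCh38.p14, read 5′ to 3′ on the strand of the gene, with matched letters in capitals. The 250 bases before the start are printed, and for ITGA5 the start base too, since its match ends there: chr12:54419266-54419516 on the minus strand for ITGA5, chr2:172427086-172427335 on the plus strand for ITGA6 and chr10:32958231-32958480 on the minus strand for ITGB1.
ITGA5: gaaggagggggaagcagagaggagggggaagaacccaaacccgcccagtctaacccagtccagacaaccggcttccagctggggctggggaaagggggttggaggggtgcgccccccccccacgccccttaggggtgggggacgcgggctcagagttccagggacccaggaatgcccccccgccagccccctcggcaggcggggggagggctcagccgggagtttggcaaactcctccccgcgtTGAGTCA
ITGA6: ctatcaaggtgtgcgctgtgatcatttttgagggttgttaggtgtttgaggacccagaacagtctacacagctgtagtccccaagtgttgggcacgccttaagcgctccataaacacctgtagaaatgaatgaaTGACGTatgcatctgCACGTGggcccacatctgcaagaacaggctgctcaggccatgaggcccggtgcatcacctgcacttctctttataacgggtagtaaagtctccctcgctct
ITGB1: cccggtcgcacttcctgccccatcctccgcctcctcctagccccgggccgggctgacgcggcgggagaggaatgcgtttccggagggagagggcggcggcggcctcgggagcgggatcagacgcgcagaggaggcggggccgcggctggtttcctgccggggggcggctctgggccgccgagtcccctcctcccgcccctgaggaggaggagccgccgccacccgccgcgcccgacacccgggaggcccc
The letters searched were TGANTCA (AP-1), TGACGTCA (CRE), TGACGT (a shorter run that every CRE also holds) and CACGTG (E-box), on both strands, in windows of 300 bases that reach from 250 before to 50 after a start. RefSeq windows were matched for 8 of the 10 subunits, 13 windows in all, and ITGA3 and ITGB3 had none. The window of ITGA5 held TGAGTCA, whose first base lies at position −6 from the start. The first of the ITGA6 windows held TGACGT at position −116 and CACGTG at position −101. The other 11 windows held none of these letters. Among all 35116 RefSeq windows, 7.71% held TGANTCA, 1.85% TGACGTCA, 7.98% TGACGT and 7.26% CACGTG. A match is a description of letters and not a bound site, and the start that each line uses was not measured here.

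The unit of all levels is RPKM, reads scaled to transcript length and library size, so that levels of different genes can be set side by side. In the authors' table each A2058 library has its own column, while the 3 libraries of a C8161 arm share a single combined one. No group therefore has a replicate spread, so nothing could be tested, and differences are given as descriptions of single values. In bulk RNA, fewer cells with a transcript and less of it per cell cannot be told apart. Steps in the low values of the A2058 columns place their depth at about 18000000 reads with ATF-3 and 17950000 in the control. The coherence of these steps was modest, at 0.342 with ATF-3 and 0.403 in the control, so the depth is a rough estimate. In the C8161 columns it was 0.341 with ATF-3 and 0.33 in the control. The best fit there lay at the edge of the depths searched, so that the depth of the C8161 columns is unknown. Between 10866 and 11753 genes reached 1 RPKM in a column. ATF3 itself was at 62.6 RPKM in C8161 with ATF-3 against 4.76 RPKM in its control, and at 4.71 RPKM in A2058 with ATF-3 against 1.22 RPKM in its control, and a value per gene does not separate introduced from native transcripts. The melanoma label was checked with 11 melanocyte lineage markers: all 11 reached 1 RPKM in both A2058 columns, but 4 did so in C8161 with ATF-3 and 3 in the C8161 control. SOX10, a neural crest factor among these markers, was at 0.05 RPKM in C8161 with ATF-3 and 0.06 RPKM in its control. In A2058 it was at 253 and 254 RPKM. The markers that did reach 1 RPKM in C8161 with ATF-3 and in its control were MCAM, CSPG4 and S100A1. MCAM was at 37.3 and 38.2 RPKM, CSPG4 at 12.5 and 13.3 RPKM and S100A1 at 3.42 and 3.60 RPKM. MITF reached it with ATF-3 only, at 1.02 RPKM. All of these were lower than in A2058. Most of the 11 markers thus go against a melanocytic identity of C8161, which is called by its name only. Of 4 markers of the dedifferentiated state of melanoma, 3 (AXL, EGFR and WNT5A) reached 1 RPKM in C8161 and 2 (AXL and NGFR) in A2058. NGFR was at 0.07 and 0.06 RPKM in C8161 against 3.28 and 2.93 RPKM in A2058. AXL was at 294 and 280 RPKM in C8161 against 12.6 and 11.4 RPKM in A2058. Of other cell types, 6 endothelial markers summed to 81.6 and 76.5 RPKM in C8161 against 2.40 and 2.23 RPKM in A2058, in C8161 almost all from TIE1 and CDH5, with PECAM1, KDR, VWF and CLDN5 each below 1 RPKM. CDH5 was at 18.1 RPKM in C8161 with ATF-3 against 8.86 RPKM in its control, and TIE1 at 62.8 against 67.2 RPKM. The sums of 7 fibroblast markers were at most 14.2 RPKM, those of 7 leukocyte or platelet markers at most 7.59 RPKM and those of 4 keratinocyte or epithelial markers at most 1.07 RPKM. The part of these genes in the differences between lines or arms was not tested.

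Levels are given first for the beta1 chain and the alpha chains that join it. ITGB1 (Entrez gene 3688; chromosome 10, 32900318 to 32958230, GRCh38) was the most abundant of the 10 in every column, at 301 RPKM in C8161 with ATF-3, 281 RPKM in the C8161 control, 147 RPKM in A2058 with ATF-3 and 143 RPKM in the A2058 control. ITGA3, the alpha chain of a laminin receptor (Entrez gene 3675; chromosome 17, 50056110 to 50090481), came second in every column, at 198 and 209 RPKM in C8161 against 51.0 and 49.6 RPKM in A2058, with the ATF-3 column first here and in the pairs that follow. Both genes were higher in both C8161 columns than in either A2058 column.

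ITGA5, the alpha chain of the classical fibronectin receptor (Entrez gene 3678; chromosome 12, 54395261 to 54419266), was at 71.8 and 79.7 RPKM in C8161 against 42.7 and 40.7 RPKM in A2058. ITGA6, a second laminin-binding chain (Entrez gene 3655; chromosome 2, 172427336 to 172506459), was at 62.2 and 60.2 RPKM in C8161 against 37.4 and 40.0 RPKM in A2058. ITGA2, of the collagen receptor (Entrez gene 3673; chromosome 5, 52989352 to 53094779), was at 5.86 and 5.31 RPKM in C8161 against 3.29 and 3.52 RPKM in A2058. In each of these genes the C8161 columns lay above the A2058 columns. ITGA4, whose dimer with beta1 binds VCAM-1 and fibronectin (Entrez gene 3676; chromosome 2, 181457205 to 181538940), went the other way. It was at 0.02 and 0.01 RPKM in C8161, the lowest level of any of the 10 genes, against 5.67 and 6.21 RPKM in A2058. At such a level in columns of unknown depth no RPKM fold is given, and the size of its ratios on the log2(RPKM + 1) scale, given below, depends on the added 1.

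Among the chains of the alphav receptors, ITGAV itself (Entrez gene 3685; chromosome 2, 186590056 to 186680901) was at 11.7 and 11.0 RPKM in C8161 against 15.5 and 17.8 RPKM in A2058. ITGB3, its partner in the vitronectin receptor alphav-beta3 (Entrez gene 3690; chromosome 17, 47253827 to 47313743), was at 2.24 and 2.06 RPKM in C8161 against 40.7 and 41.6 RPKM in A2058. ITGB8, whose dimer with alphav activates latent TGF-beta (Entrez gene 3696; chromosome 7, 20329766 to 20415754), was at 0.72 and 0.54 RPKM in C8161 against 6.35 and 7.30 RPKM in A2058. All 3 were lower in both C8161 columns. ITGB5, the chain of another vitronectin receptor (Entrez gene 3693; chromosome 3, 124761948 to 124901418), was at 32.5 and 39.7 RPKM in C8161 against 40.5 and 38.6 RPKM in A2058. It was the only member of the 10 whose C8161 and A2058 columns overlapped.

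**Figure D1:**
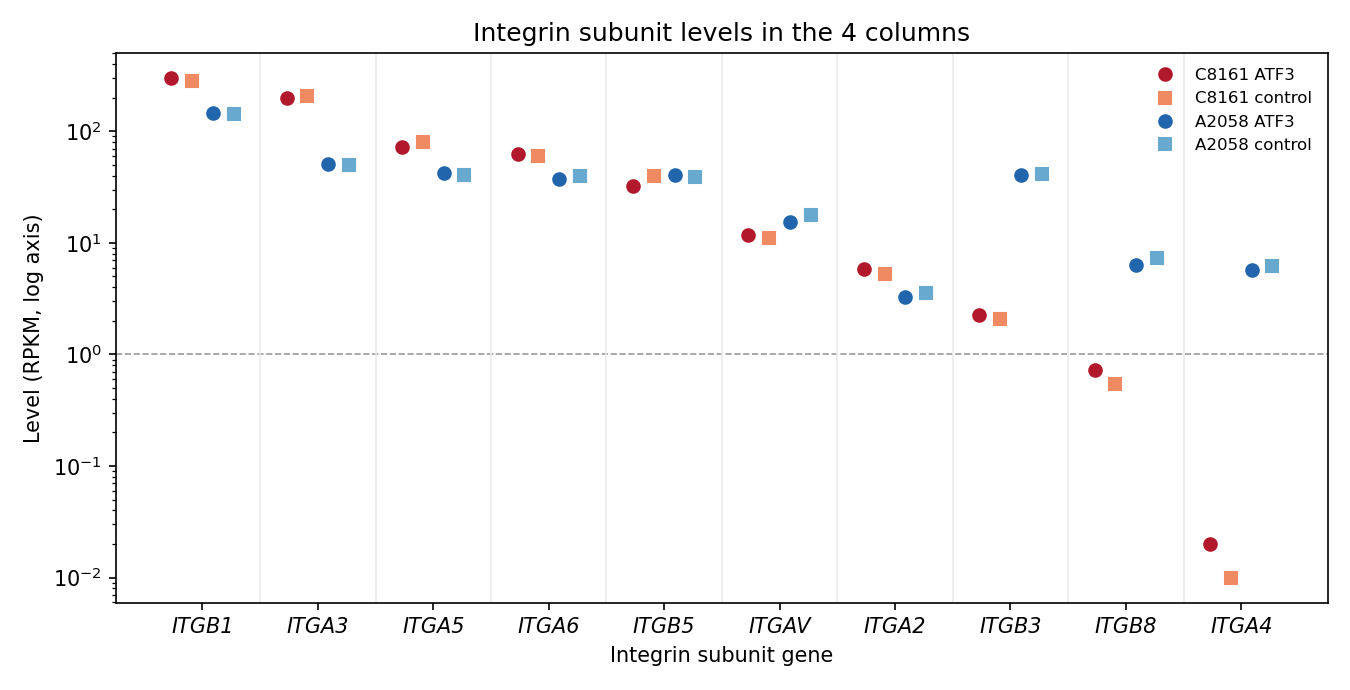
Level of each integrin subunit gene (RPKM, log axis) in the 4 columns, with circles for ATF-3 and squares for control; the dashed line marks 1 RPKM. ITGB1 stood highest in every column, at 301 to 143 RPKM, while ITGB3, ITGB8 and ITGA4 lay far lower in C8161 than in A2058.

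The order of the levels differed between the lines. In the C8161 control it ran ITGB1, ITGA3, ITGA5, ITGA6, ITGB5, ITGAV, ITGA2, ITGB3, ITGB8, ITGA4, and the order with ATF-3 was the same. In A2058, ITGB1 and ITGA3 were followed by ITGA5, ITGB3, ITGB5 and ITGA6, which lay between 37.4 and 42.7 RPKM in a different order in each column. ITGAV, ITGB8, ITGA4 and ITGA2 came last in both A2058 columns, although ITGB8 and ITGA4 with ATF-3 were close, at 6.35 and 5.67 RPKM. ITGB1, ITGA3, ITGA5, ITGA6 and ITGB5 lay above the level of 85% of all genes in all 4 columns, and ITGB3 did so in both A2058 columns.

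The make-up of the integrin transcripts was read as the share of each gene in the summed RPKM of the 18 alpha or the 8 beta subunits of the table. ITGA3 made up 55.8% of the alpha sum in C8161 with ATF-3 and 56.3% in its control, against 26.8% and 25.7% in A2058. ITGA5 (20.2% and 21.5% in C8161, 22.5% and 21.1% in A2058) and ITGA6 (17.5% and 16.3% in C8161, 19.7% and 20.8% in A2058) had close shares in both lines. ITGAV took 3.28% and 2.97% in C8161 against 8.17% and 9.24% in A2058. The 6 alpha members together held 98.5% of the alpha sum in both C8161 columns and 81.9% in both A2058 columns, where ITGA7, ITGA1 and ITGA9 were the largest of the remaining chains.

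Among beta chains, ITGB1 held 88.1% and 85.2% in C8161 against 62.3% and 61.7% in A2058. ITGB3 held 0.66% and 0.63% in C8161 against 17.3% and 18.0% in A2058. The chains that pair with alphav other than beta1, namely ITGB3, ITGB5, ITGB6 and ITGB8, summed to 35.5 and 42.3 RPKM in C8161 against 87.7 and 87.7 RPKM in A2058. ITGB5 made up 91.6% and 93.8% of that sum in C8161, whereas in A2058 it made up 46.2% and 44.0%, beside 46.4% and 47.5% for ITGB3. These sums were 3.04 and 3.85 times the ITGAV level in C8161 and 5.65 and 4.92 times in A2058. The alpha chains known to join beta1 other than alphav summed to 340 and 355 RPKM in C8161 against 167 and 168 RPKM in A2058. ITGB1 was 0.88 and 0.79 times that sum in C8161 and 0.88 and 0.85 times in A2058.

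**Figure D2:**
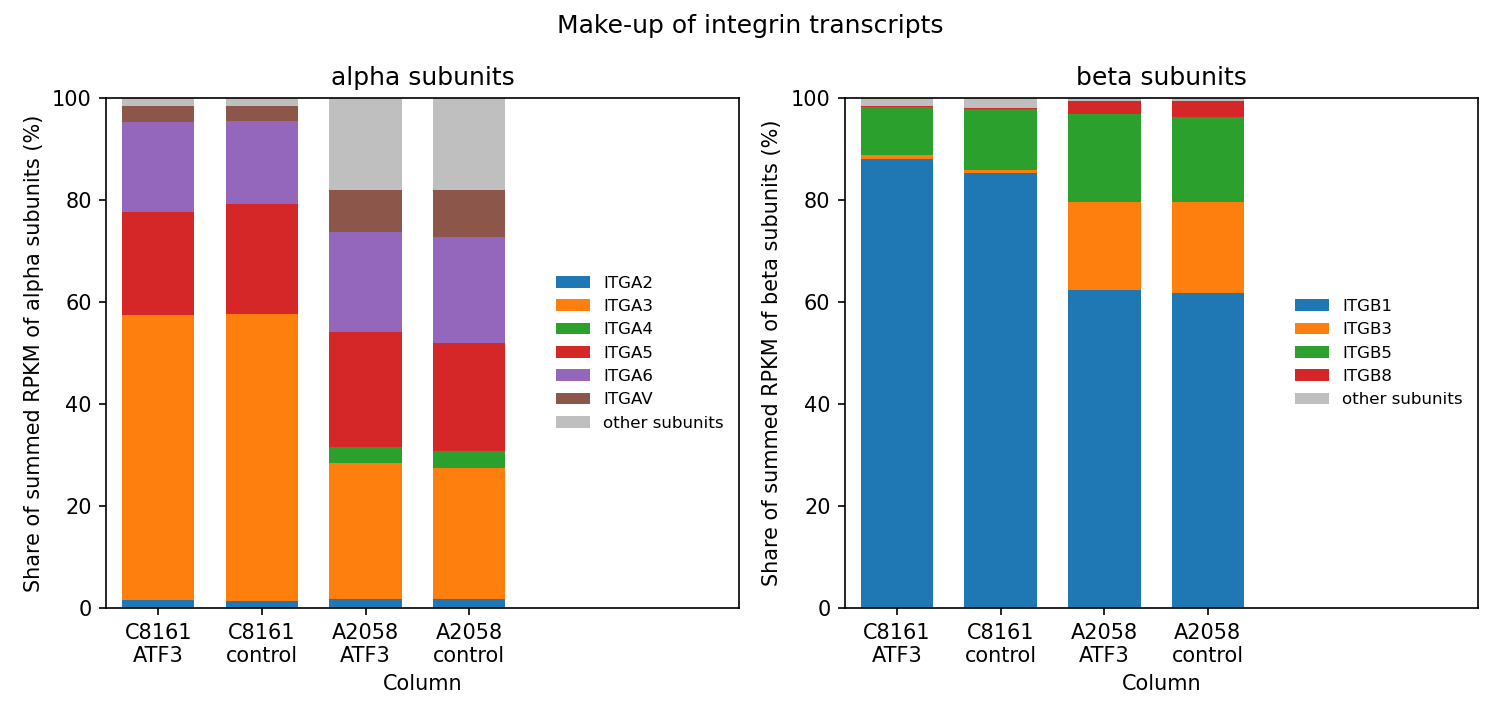
Share of each subunit in the summed RPKM of the alpha subunits (left) and beta subunits (right), in percent, for each of the 4 columns; grey stands for all subunits not described here. ITGA3 takes 55.8% and 56.3% of the alpha bar in C8161, and ITGB3 is a thin line of the beta bar in C8161 (0.66% and 0.63%) against a broad band in A2058 (17.3% and 18.0%).

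For the lines, differences were expressed as the log2 ratio of RPKM + 1 in the C8161 control over the A2058 control. The added 1 understates differences of low genes. At an absolute ratio of at least 1, 4 of the 10 subunits differed: ITGA3 was higher (2.05) and ITGB3 (−3.80), ITGA4 (−2.84) and ITGB8 (−2.43) were lower. Of 12372 genes compared, 30.0% passed that size, 9.36% higher and 20.7% lower, so the members' count of 4 is near the share over all genes. In RPKM without the added 1, ITGA3 was 4.21-fold higher, and ITGB3 stood at 0.049 times the A2058 control. For ITGB8, at 0.54 RPKM in the C8161 control, no RPKM fold is given. ITGB1 (0.97) and ITGA5 (0.95) lay just inside the size chosen, and both passed it, at 1.25 and 1.23, when columns were scaled by their median ratio. That scaling moved the median of all genes from −0.19 to 0.06. With quantile normalization instead, ITGA5 was at 1.01 and ITGB1 at 0.90. ITGA6 (0.58), ITGA2 (0.48), ITGB5 (0.04) and ITGAV (−0.65) differed by less. Set against the median of −0.19 over all genes, the median of the 10 subunits was 0.26.

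The ATF-3 arms, which are other libraries of the same lines, gave 5 of 10 past that size, against 31.3% of 12381 genes (9.92% higher and 21.4% lower), with ITGA3 at 1.94, ITGB1 at 1.03, ITGB8 at −2.10, ITGA4 at −2.71 and ITGB3 at −3.69. In each arm the same subunits were higher or lower in C8161, apart from ITGB5, at −0.31 with ATF-3 and 0.04 in the controls, and at −0.03 with ATF-3 and 0.31 in the controls under median-ratio scaling. In RPKM, 5 subunits were higher in both C8161 columns than in both A2058 columns and 4 were lower. Such a separation was common, in 91.4% of 12493 genes, 36.7% higher and 54.7% lower in C8161. The A2058 side of each of these comparisons rests on 1 library per arm.

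**Figure D3:**
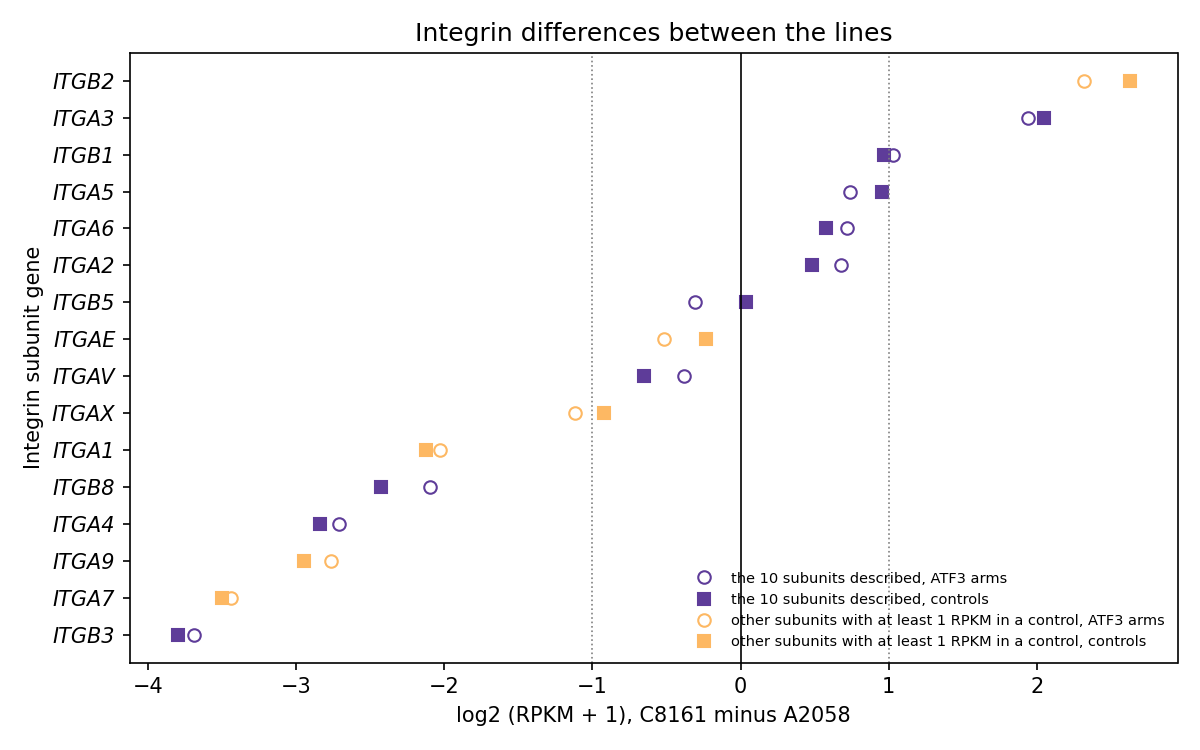
log2 ratio of RPKM + 1, C8161 over A2058, for the 10 subunits and for other integrin subunits with at least 1 RPKM in a control; open circles are the ATF-3 arms, squares the controls, and dotted lines mark a ratio of 1 in either direction. ITGA3 lies at about 2, and ITGB3, ITGA4 and ITGB8 lie below −2 in both arms.

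With ATF-3 the same genes differed little beside the distance between the lines. In C8161, 8 of the 10 subunits reached 1 RPKM in at least 1 arm and were compared, which leaves out ITGA4 and ITGB8. A gene was called past the fold at an absolute log2 ratio of at least 0.25, about 1.19-fold. ITGB5 was past it, at 32.5 RPKM with ATF-3 against 39.7 RPKM in the control, a log2 ratio of −0.28. It was 1 of the 8, where 5.78% of 10941 genes passed, 2.58% higher and 3.20% lower. Ratios were also set against a level band, the range that holds 95% of the ratios of 500 genes of closest level. ITGB5 lay inside its band, at the lower edge, which was also −0.28. Outside their bands lay 5.24% of genes (2.63% higher and 2.60% lower), a share near 5% by construction, and none of the 8 members.

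The other C8161 subunits differed less. ITGA5 had a log2 ratio of −0.15 and ITGA3 of −0.07, both lower with ATF-3. ITGA2 was at 0.12, ITGB1 at 0.10, ITGB3 at 0.08, ITGAV at 0.08 and ITGA6 at 0.04, all higher. The median over the 8 was 0.06, against 0.01 over all genes compared, and the median absolute ratio was 0.090 against 0.082. The C8161 ratios moved with GC content across genes (Spearman's rho −0.43 over 10861 genes, which share libraries and are not independent) and with transcript length (rho 0.23). The 3 members lower with ATF-3 had the highest GC contents of the 8, 54.3% to 60.9%, against 38.3% to 52.3% in the 5 that were higher. With both trends removed, the ratio of ITGB5 was −0.24, no longer past the fold, that of ITGA5 −0.07 and that of ITGA3 0.03.

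In A2058 all 10 subunits were compared and none passed a log2 ratio of 0.25, against 4.19% of 11883 genes (2.34% higher and 1.85% lower). The widest difference was that of ITGAV, at 15.5 RPKM with ATF-3 against 17.8 RPKM in the control (log2 ratio −0.19). It was the only one of the 10 outside its level band, whose lower edge was at −0.18, where 5.18% of all genes lay outside theirs, 2.55% above and 2.63% below. ITGB8, at 6.35 against 7.30 RPKM (−0.18), ITGA4 (−0.11), ITGA6 (−0.10), ITGA2 (−0.08) and ITGB3 (−0.03) were also lower. ITGA5 (0.07), ITGB5 (0.07), ITGA3 (0.04) and ITGB1 (0.04) were higher. The median of the 10 was −0.05, against 0.00 over all genes. At the estimated depth, and with the length of the longest coding transcript, the members rested on about 430 to 10000 reads per column.

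The 95% interval from counting error alone, on the log2 ratio of RPKM without the added 1, was −0.28 to −0.11 for ITGAV, −0.32 to −0.08 for ITGB8 and −0.16 to −0.03 for ITGA6. That of ITGA5 was 0.00 to 0.14, with its lower end just above 0, and those of the other 6 members included 0. These intervals hold no spread between cultures. In A2058 the ratio also moved with transcript length (rho −0.23 over 11758 genes). The 6 lower members had transcripts of 3995 to 8751 bases and the 4 higher ones 3784 to 4888 bases. With the trends removed, ITGAV was at −0.12 and ITGB8 at −0.10. No level band was made from ratios with the trends removed, so the place of ITGAV among genes of like level is not known at that setting.

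**Figure D4:**
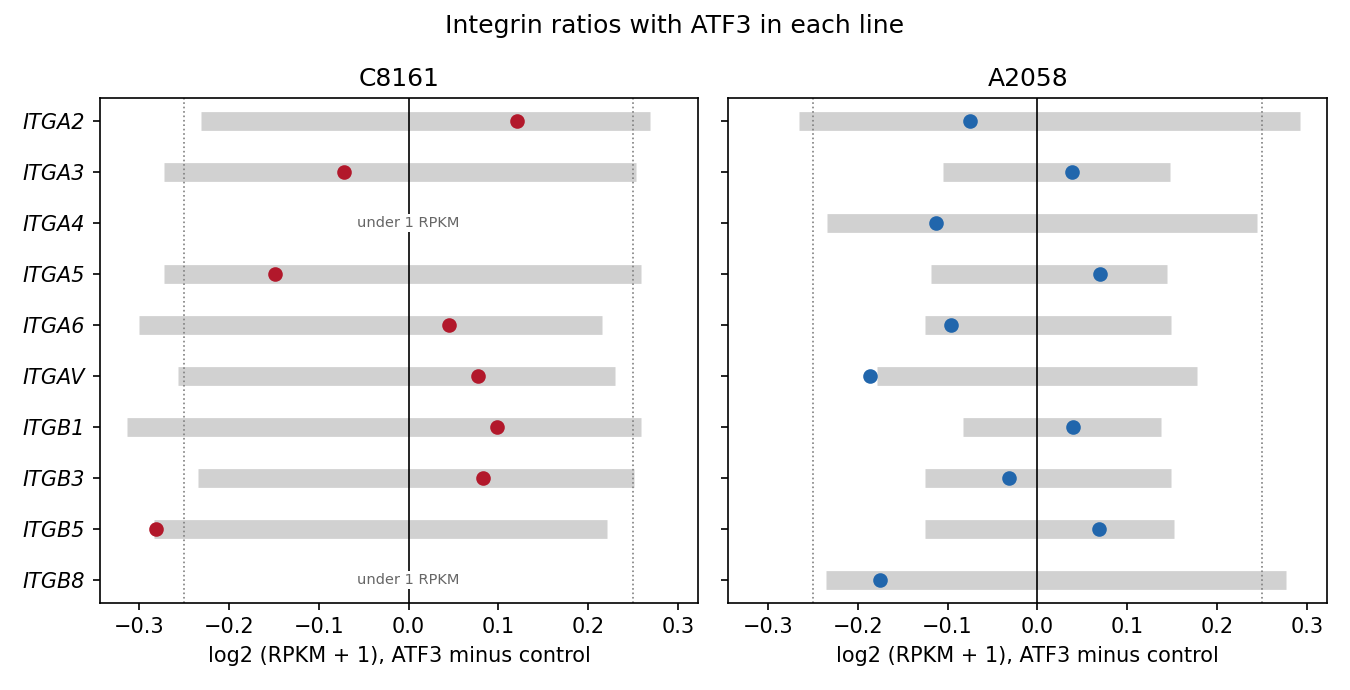
log2 ratio of RPKM + 1, ATF-3 over control, for each subunit in C8161 (left) and A2058 (right); points are ratios, grey bars the level band of genes of like level, and dotted lines the fold of 0.25. Only ITGB5 in C8161 passes the dotted line, and only ITGAV in A2058 lies outside its grey bar.

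Of the 8 subunits compared in both lines, 7 had ratios of opposite sign, ITGB1 being the exception. Over all genes, 51.5% of 10331 had opposite signs. The widest gap was that of ITGB5, −0.28 in C8161 and 0.07 in A2058, followed by ITGAV, 0.08 in C8161 and −0.19 in A2058. With the GC content and length trends removed, 6 of the 8 had opposite signs, against 48.4% of 10260 genes at that setting. With 1 pair of values per line, a difference between the lines could not be tested. The arms were also unlike in ATF3 itself, at 62.6 RPKM in C8161 with ATF-3. In A2058 with ATF-3 it was at 4.71 RPKM, close to the 4.76 RPKM of the C8161 control.

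Reads of ITGB3 and ITGB1 are less certain than those of the other members. Of the 50-base stretches of the longest ITGB3 coding transcript in GENCODE 29, 56.2% also occur in transcripts of another gene, AC068234.1, and 15.0% of those of ITGB1 occur in AC022149.1. For the remaining 8 members the share was at most 0.172%. How the authors' counting divided such reads is not given in the sources used here. The splice variants of the cytoplasmic tails of ITGA3 and ITGA6 are not separated by a value per gene.

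Other integrin genes, ligands, focal adhesion proteins and membrane partners were taken from lists written for this description. All 16 other integrin subunits of the list were in the table. ITGA7, a laminin-binding chain best known from muscle, was at 0.14 and 0.13 RPKM in C8161 against 11.4 and 11.8 RPKM in A2058. ITGA1, of a collagen receptor, was at 1.26 and 1.11 RPKM in C8161 against 8.23 and 8.20 RPKM in A2058, and ITGA9 was at 0.01 and 0.01 RPKM against 5.88 and 6.79 RPKM. Thus, with ITGA4, these alpha chains of beta1 dimers were lower in C8161 while ITGA2, ITGA3, ITGA5 and ITGA6 were higher. ITGB4, the partner of alpha6 in hemidesmosomes, was at 0.01 and 0.02 RPKM in C8161 against 0.72 and 0.77 RPKM in A2058. Named outside the rule for named genes, it stayed under 1 RPKM and was not compared. ITGAE and ITGAX, chains better known from leukocytes, were lower in the C8161 control than in the A2058 control, with log2 ratios of −0.23 and −0.92. With ATF-3, 1 of 4 other subunits compared in C8161 passed 0.25, against 5.78% of all genes, and none of 5 in A2058, against 4.19%. The C8161 gene was ITGB2, at 4.33 against 5.43 RPKM (log2 ratio −0.27) and below its band. Its GC content was 59.1%. Ratios of genes outside the 10 members are given here and below without removal of the GC content and length trends.

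Among integrin ligands, 31 of the list were compared in the controls. A log2 ratio of at least 1 was found for 6 genes higher in C8161, among them LAMB3, CCN1 and TGFBI, and 10 lower (COL1A1, COL4A1, COL4A2, LAMA1, LAMA4, LAMB1, NID1, FBLN5, TGFB3 and L1CAM), where 9.36% of all genes were higher and 20.7% lower. The median of the list was −0.36, against −0.19 over all genes. LAMB3, a chain of laminin-332, which is a ligand of alpha3-beta1 and of alpha6 dimers, was at 212 and 234 RPKM in C8161 against 8.98 and 8.37 RPKM in A2058. LAMA3, the alpha chain of the same laminin, was chosen after its values were seen. It was at 1.16 and 1.37 RPKM in C8161 against 0.35 and 0.37 RPKM in A2058. CCN1, a matricellular ligand of several integrins, was at 613 and 579 RPKM in C8161 against 6.26 and 6.06 RPKM in A2058.

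SPP1, or osteopontin, a ligand of alphav-beta3, was at 108 and 112 RPKM in C8161 against 202 and 177 RPKM in A2058. VTN, the vitronectin gene, also chosen after its values were seen, stayed under 1 RPKM in every column. With ATF-3 in C8161, 2 of 27 ligands passed 0.25, against 5.78% of all genes, both lower: TGFBI at 155 against 220 RPKM, and TNC, or tenascin C, at 46.5 against 58.8 RPKM. In A2058, 2 of 27 passed, against 4.19% of all genes, both higher: COL1A1 at 4.99 against 3.97 RPKM, and TGFBI at 1.75 against 1.21 RPKM. Both lay inside their level bands in A2058, and TGFBI there rested on about 88 reads with ATF-3 and 61 in the control. ADAM15, a membrane protease with an integrin-binding loop, was at 44.7 against 52.3 RPKM in C8161, and THBS1, or thrombospondin 1, at 12.7 against 11.4 RPKM in A2058.

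The adhesome list, of proteins that link integrin tails to actin, held 36 genes of the table. In the control comparison, 5 of 35 were higher (TLN2, FERMT1, FERMT3, PARVA and TNS1) and 4 lower (TNS2, NEDD9, DAB2 and KRIT1) in C8161, a count of 9 that is near the 30.0% of all genes. The median of the list was 0.37, against −0.19 over all genes. NEDD9, a scaffold of focal adhesions, was at 0.10 and 0.09 RPKM in C8161 against 23.0 and 23.2 RPKM in A2058. TNS1, or tensin 1, was at 12.3 and 12.5 RPKM in C8161 against 0.14 and 0.10 RPKM in A2058. The most abundant were ACTN4, FLNA and ACTN1, which bind actin, and PXN, or paxillin, at 149 and 135 RPKM in C8161 against 80.2 and 80.1 RPKM in A2058. With ATF-3, 1 of 34 passed 0.25 in C8161, against 5.78% of all genes. It was DAB2, an endocytic adaptor of integrins, at 8.98 against 7.38 RPKM. None of 33 passed in A2058, against 4.19% of all genes. KRIT1, which binds an adaptor of the beta1 tail, was at 4.71 against 3.90 RPKM in C8161 and at 12.3 against 11.1 RPKM in A2058, and FLNA at 231 against 267 RPKM in C8161. In A2058, TNS2 was at 17.7 against 19.6 RPKM and LPP at 3.88 against 4.33 RPKM.

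Of 20 membrane partners in the table, 19 were compared, and 6 were higher and 3 lower in the C8161 control, where 9.36% of all genes were higher and 20.7% lower. The median of the list was 0.34, against −0.19 over all genes. CAV1, or caveolin 1, was at 176 and 155 RPKM in C8161 against 10.3 and 10.1 RPKM in A2058. IGSF8, a partner of tetraspanins, was at 3.93 and 4.50 RPKM in C8161 against 61.7 and 62.4 RPKM in A2058. With ATF-3, 1 of 19 passed 0.25 in each line, near the shares of all genes, 5.78% in C8161 and 4.19% in A2058. In C8161 it was the tetraspanin CD9, at 138 against 108 RPKM, a log2 ratio of 0.35 and above its band. In A2058 it was PLAUR, the urokinase receptor, at 41.6 against 33.4 RPKM (log2 ratio 0.31). CD151, the tetraspanin that binds alpha3-beta1, was at 303 against 342 RPKM in C8161 (−0.18) and 200.1 against 195 RPKM in A2058 (0.04). The most abundant partner was the tetraspanin CD63, at 663 and 576 RPKM in C8161 against 978 and 932 RPKM in A2058. BSG, or basigin, and SLC3A2, the heavy chain CD98, both lower in C8161, followed it in A2058. CD47, an integrin-associated protein, was at 19.5 against 16.5 RPKM in C8161, and SDC4, or syndecan 4, at 30.9 against 28.2 RPKM in A2058.

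Genes of like pattern were sought as those with the smallest Euclidean distance over log2(RPKM + 1) in the 4 columns, for the members with the highest and the lowest line ratio. Nearest to ITGA3 were TNFRSF1A (distance 0.15), EZR (0.25) and TNFRSF12A (0.39), which had between 161 and 196 RPKM in C8161 and between 49.0 and 57.5 RPKM in A2058. Nearest to ITGB3 were IRS2 (0.18), CDKN1C (0.31) and IMPA2 (0.32), which had between 1.78 and 2.69 RPKM in C8161 and between 39.5 and 47.8 RPKM in A2058. With 4 columns from 2 lines, this likeness is chiefly of level and of the difference between the lines.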

How the data were processed

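RNA-seq of 8 libraries was summarised by the authors as RPKM, deposited in 1 table of 4 columns with 2 decimals, per the file headers. Each A2058 library is a column, and each C8161 arm of 3 libraries is 1 combined column, made in a way that is not stated. Per the submitters' processing notes, Bowtie2, RSEM and hg38 were used, in roles not stated. Annotation and strandedness: not given in the sources used here. Symbols and coordinates came from RefSeq genes of GRCh38.p14 by Entrez identifier (18156 of 18478 matched), and length and GC content from GENCODE 29 transcripts (17850 genes).

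Values were used as deposited. Ratios were log2(RPKM + 1) differences over genes that reached 1 RPKM in either column of a comparison. With 1 value per arm the planned limma fit could not be run. The depth was estimated from transcripts of 400 to 1500 bases, genes with 1 transcript and values under 0.4 RPKM, by the coherence of whole-read steps. Intervals cover counting error only. GC content and length trends were removed by lowess (statsmodels 0.14.6). The fold count and the level band were tested on simulated columns with known folds, and the other steps were not. The alternatives were a pseudocount of 0.1, median-ratio scaling, quantile normalization and other minimum levels. The members and lists were chosen with earlier results of these data known. In each list the genes named were the 4 most abundant and the 3 with the widest ratio per comparison, at a mean of at least 2 RPKM; 1 of them is not reported here.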

Additional observations from a re-analysis of the deposited data

Results flagged for a closer look

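The log2 ratio with ATF-3 had opposite signs in the lines for 7 subunits, and the difference between the lines was not tested. As the C8161 ratio minus the A2058 ratio, it was 0.26 for ITGAV, 0.20 for ITGA2, 0.14 for ITGA6 and 0.11 for ITGB3. It was −0.35 for ITGB5, −0.22 for ITGA5 and −0.11 for ITGA3. Opposite signs were found in 51.5% of all genes. ATF3 itself was at 62.6 RPKM in C8161 with ATF-3 and at 4.71 RPKM in A2058 with ATF-3, so unlike levels of ATF3 are set side by side. In A2058 the counting intervals of ITGA2, ITGA3, ITGB3 and ITGB5 included 0, so counting error alone leaves the signs of these genes open there. With the GC content and length trends removed, ITGA3 was above 0 in both lines, at 0.03 in C8161 and 0.05 in A2058.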

How the results depend on the processing

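The number of members past the fold was within 1.5 times its reported value under every alternative run for the line comparisons and for A2058, and for C8161 under all but the removal of GC content and length trends, an alternative added after the data were seen for this count, where it was 0 against 1. Median-ratio scaling gave 6 members past a ratio of 1 between the controls and quantile normalization 5, against 4. The members counted could change. With quantile normalization ITGA5 (1.01) was past it between the controls and ITGB1 (0.90) was not. Between the ATF-3 arms the count stayed at 5, but ITGA2 (1.05) was past it and ITGB1 (0.95) no longer was. The count of opposite signs was 7 of 8 as deposited, 9 of 10 without a minimum level, 5 of 6 with a minimum of 5 RPKM and 6 of 8 with the trends removed. With a pseudocount of 0.1, the control line ratio of ITGA4 was −5.84 against −2.84, since its C8161 level is near 0. No paired analysis was possible because the C8161 columns combine the libraries of an arm and A2058 has 1 library per arm, and no replicate could be left out for the same reason. The depth of the C8161 columns is unknown, which leaves every member there without a measure of precision, ITGB5 and the low ITGA4 and ITGB8 among them.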

Other observations

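C8161 held transcripts of the leukocyte chain ITGB2, with lower levels of the alpha chains it joins. ITGB2 was at 4.33 RPKM with ATF-3 and 5.43 RPKM in the control, against 0.07 and 0.04 RPKM in A2058. Its partners ITGAL (0.05 and 0.04 RPKM), ITGAM (0.04 and 0.01 RPKM) and ITGAD (0.03 and 0.03 RPKM) were near 0 in C8161, and ITGAX was at 0.88 and 1.02 RPKM. FERMT3, or kindlin-3, known from blood cells, was at 7.36 and 8.17 RPKM in C8161 against 1.06 and 1.06 RPKM in A2058. The leukocyte marker PTPRC, or CD45, was at 0.25 and 0.24 RPKM in C8161 against 0.37 and 0.43 RPKM in A2058.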
